A study of Rattus norvegicus with 100 samples.

Results

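The genes described here encode parts of the cytoskeleton, of cell adhesion and of the extracellular matrix in cultured rat hepatocytes: annexins, claudins, collagens, integrin chains, keratins, laminins, myosin light chains, tropomyosins and tubulins. They were taken by gene symbol alone (Itga, Itgb, Lama, Lamb, Lamc, Col, Krt, Tuba, Tubb, Tpm, Myl or Anxa followed by a digit, or Cldn). Each gene was represented by the probe set with a single symbol that had the highest mean over all arrays. Of 142 such genes, 69 passed a floor (log2 intensity above 5 on 3 or more arrays) and were tested, among 8843 of 13439 genes in the whole series. By family, 9 of 10 annexins, 9 of 18 claudins, 12 of 37 collagens, 4 of 8 integrin alpha chains, 5 of 10 integrin beta entries, 8 of 26 keratins, 7 of 10 laminin chains, 5 of 10 myosin light chains, 4 of 4 tropomyosins and 6 of 9 tubulins were tested. The symbols also bring in Itgb1bp1 and Itgb3bp, which encode proteins named for binding to integrin tails and are not integrins, and Cldnd1, a protein with a claudin domain.

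Hepatocytes came from 4 rats, labelled Rs627, Rs628, Rs631 and Rs632, and were kept on plates coated with rat collagen IV, to which Geltrex, a basement membrane extract, was added after plating. GW7647, a synthetic agonist of the nuclear receptor PPARα, was present at 0.001, 0.01, 0.1, 1 or 10 µM or absent (0 µM), and total RNA was taken after 2, 6, 12, 24 or 72 h. Each of the 100 Affymetrix arrays measured one culture of one rat, and there were 30 groups, with 2 to 4 arrays in each. At 72 h the groups at 0, 0.001, 0.01 and 1 µM held 4 arrays, one per rat, and those at 0.1 and 10 µM held 3, with no array of Rs627. At 24 h the 0 µM group held 3 arrays (none of Rs628), the 1 µM group 4, the 0.1 µM group 3 (none of Rs632) and the 10 µM group 3 (none of Rs627). All groups share the added matrix, which is protein and is not what the arrays measure. Whether solvent without agent was added at 0 µM is not given in the sources used here.

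Actin filaments, microtubules and keratin filaments give a cell its shape, and integrins join them through the plasma membrane to laminins and collagens of the matrix. Tropomyosins lie along actin filaments, myosin light chains regulate the motor that pulls on them, annexins bind phospholipid membranes when calcium is present, and claudins seal the space between neighbouring cells. In the liver, hepatocytes carry the keratin pair Krt8 and Krt18, rest on a sparse matrix rather than a full basement membrane, and change their cytoskeletal and matrix genes when they are taken into culture. PPARα is best known for genes of fatty acid use.

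The array signal, taken as the upper quartile of each array, ranged from log2 6.42 to 7.27, and lay under 6.6 in 5 arrays. None of those 5 was from 72 h, and 2 of them were the arrays of Rs631 and Rs632 at 1 µM and 24 h. Arrays of one rat resembled each other across groups, except that the 12 h arrays at 0 µM labelled Rs627 and Rs628 resembled the other of these rats more. Both lie in the same group, so group means do not depend on that label. Most of the 14 hepatocyte markers were at high levels (Alb at a mean of 13.72, Ttr at 12.84 and Hnf4a at 10.43 over all arrays). Pck1 (6.43) and Cyp2e1 (5.18, above 5 in 47 of 100 arrays) were low. None of the 8 measured endothelial markers exceeded 5 in any array. In such bulk RNA, fewer cells of a type and less RNA per cell cannot be told apart.

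In untreated cultures, 43 of the 69 genes lay above log2 5 in all 17 arrays at 0 µM, whatever the time. The median level over those 17 arrays was above 9 for 26 genes and below 5 for 20. Genes detected well above that floor included Krt18, which ranged over the untreated arrays from 12.05 to 12.95, Anxa2, Myl12a and Tubb2a, whereas Krt7, Krt19, Cldn4, Tpm2 and 5 of 12 collagens had untreated medians below 5. Culture time alone moved few of them. One gene, Lamc3, fell between 2 and 72 h at 0 µM (log2 change -0.43 ± 0.12 (SE), limma adjusted p = 0.0289), where 3.4% of all genes tested passed. The median change was -0.09 over the 69 genes and -0.17 over all genes.

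Lamc3, which encodes a minor laminin gamma chain, was 4.96, 4.99 and 4.83 at 2 h (Rs627, Rs631 and Rs632) and 4.45, 4.68, 4.42 and 4.43 at 72 h, all under 5. Tubb4a, a beta tubulin best known from brain, fell at 6 h (-0.43 ± 0.09, adjusted p = 0.00247), at 12 h (-0.72 ± 0.10, adjusted p = 1.82e-07) and at 24 h (-0.61 ± 0.10, adjusted p = 3.14e-05) against 2 h, and lay between 4.61 and 5.59 in these groups. Both genes sit at the floor of 5. With values under 5 set to 5, the change of Lamc3 at 12 h (-0.69 as measured) was 0. Myl4, an atrial myosin light chain, rose at 6 h (0.92 ± 0.21, adjusted p = 0.00782), from 4.11, 3.69 and 4.22 to 5.35, 4.73, 4.48 and 5.16. Every value at 2 h and part of those at 6 h lay under 5, so this rise too is at the floor. In all, 2 genes passed at 6 h, 2 at 12 h and 1 at 24 h, against 1.5%, 1.79% and 1.41% of all genes. With the rat as a block the count at 72 h was 8, all lower (Itga6, Krt10, Lamc3, Myl12b, Myl4, Tubb2a, Tubb4a and Tubb6), beside 13% of all genes (12.5% lower), and without Rs627, Rs631 or Rs632 it was 0.

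Many of these genes were lower late in the exposure to GW7647 and few were higher. At 1 µM no gene of the 69 passed at 2, 6 or 12 h in limma (0, 3 and 4 had an unadjusted p under 0.05), 18 passed at 24 h (17 lower, 1 higher) and 31 at 72 h (29 lower, 2 higher). Among all genes tested, 0.373%, 2.04%, 5.41%, 29.6% and 26.8% passed at those times. At 72 h, 42.0% of the 69 genes fell and 2.90% rose, whereas 15.5% of all genes fell and 11.3% rose. At 24 h, 24.6% of the 69 fell and 1.45% rose, beside 22.6% and 7.06% of all genes, so the share that fell was near the background.

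**Figure D1:**
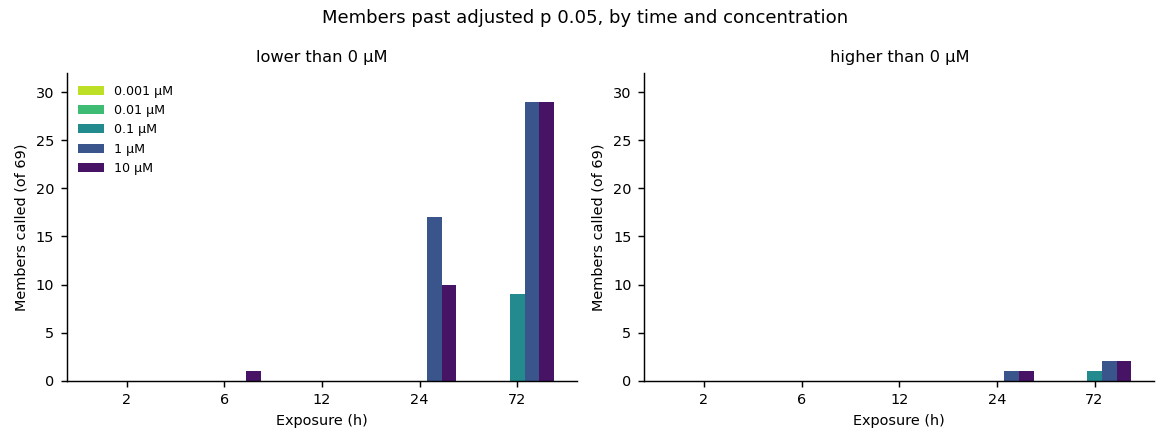
Number of the 69 genes past an adjusted p of 0.05 against 0 µM, by exposure time (x axis, h) and concentration (colour), for lower values (left) and higher values (right). Bars appear from 24 h on, apart from 1 gene at 10 µM and 6 h, and reach 29 lower genes at both 1 and 10 µM at 72 h beside 2 higher.

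The median log2 change at 1 µM was -0.25 at 24 h and -0.52 at 72 h over the 69 genes, and -0.23 and -0.06 over all genes. The typical gene was thus shifted down at 24 h and hardly at 72 h. Without the arrays of low signal, 2 of the 4 at 1 µM and 24 h, the median of all genes at 24 h was -0.1. Quantile normalization moved the median of all genes at 24 h to -0.08, turned the split of the 69 genes there to 3 higher and 13 lower, and gave 907 higher among 2298 called of all genes, in place of 624 among 2619. At 72 h the split under that normalization was 3 higher and 31 lower.

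At 72 h all 31 genes that passed at 1 µM changed the same way in 4 of 4 rats. Over all 69, every 1 µM array lay below every 0 µM array for 28 genes and above for 2, which held for 17.1% and 11.7% of all genes. Genes with a mean above log2 7 fell in 23 of 33 cases, beside 18.4% of all genes with such a mean, and those with a lower mean fell in 6 of 36 cases, beside 11.4%. The count at 72 h was 42 (60.9% of the 69) with the rat as a block, beside 40.3% of all genes.

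**Figure D2:**
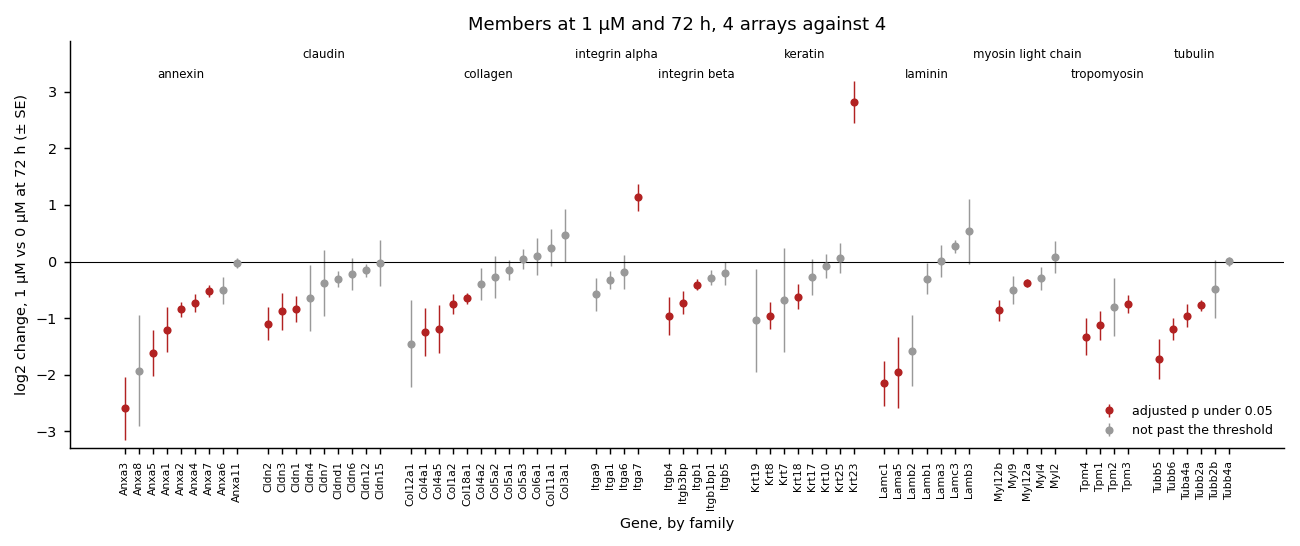
Log2 change at 1 µM against 0 µM after 72 h (y axis) for each of the 69 genes, grouped by family and ordered by size within it. Points are differences of 4-array means, bars are standard errors of the model, and red marks an adjusted p under 0.05. Most red points lie below 0, from Anxa3 at -2.59 to Myl12a at -0.37, and Krt23 and Itga7 lie above.

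Of the 9 annexins 6 fell at 1 µM and 72 h and none rose, with a family median of -0.84. Among all genes 15.5% fell and 11.3% rose, the shares to set beside each family count here and below. The families are small and were not tested against these shares, so that none rose is not read as a trait of a family. Values are given in the order Rs627, Rs628, Rs631, Rs632. Anxa3, a membrane-binding annexin, was 10.59, 11.47, 9.78 and 9.80 at 0 µM and 7.83, 8.61, 7.70 and 7.13 at 1 µM. Every treated array lay below every untreated one, with differences of -2.85 to -2.08 within a rat, a 6.02-fold lower level (log2 change -2.59 ± 0.55, adjusted p = 0.000162).

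Anxa5, which binds phosphatidylserine, went from 11.07, 11.43, 9.96 and 10.48 to 9.26, 9.70, 8.82 and 8.70 without overlap (3.06-fold lower, adjusted p = 0.00157). Anxa2, which links membranes to actin, went from 12.18, 12.35, 11.90 and 12.03 to 11.28, 11.49, 11.24 and 11.10 (1.79-fold lower, adjusted p = 3.61e-07), a smaller change than that of Anxa5 but with tight replicates. Anxa1 fell by 1.2, Anxa4 by 0.73 and Anxa7 by 0.52 on the log2 scale. For Anxa1 the groups overlapped (6.80, 7.51, 6.59 and 5.99 against 5.63, 6.12, 5.61 and 4.73), although each rat was lower. For Anxa7 a second probe set gave 0.10 (adjusted p = 0.775), so its fall rests on 1 probe set.

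The 3 other annexins did not pass. The log2 change was -0.51 for Anxa6 (adjusted p = 0.0939) and -0.03 for Anxa11 (adjusted p = 0.867). Anxa8 differed widely between rats: 9.72, 9.88, 7.10 and 9.60 at 0 µM and 8.26, 7.68, 4.69 and 7.96 at 1 µM. It was lower in every rat (differences of -2.41 to -1.46), yet its adjusted p was 0.145. In the fit with a rat block it was 4.58e-11. Anxa6 also passed in that fit (adjusted p = 0.000582).

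Of 7 laminin chains 2 fell at 72 h and none rose, beside 15.5% and 11.3% of all genes. Lamc1 encodes the gamma chain found in most laminins. It was 9.90, 10.78, 9.69 and 9.54 at 0 µM and 7.70, 8.77, 7.43 and 7.41 at 1 µM, with differences of -2.25 to -2.01 within a rat and no overlap (4.44-fold lower, log2 change -2.15 ± 0.40, adjusted p = 1.43e-05). Its second probe set gave -1.44 (adjusted p = 0.00429). Lama5, the alpha chain of laminins of mature basement membranes, went from 6.47, 7.91, 5.55 and 6.84 to 4.15, 5.34, 4.6 and 4.84 (log2 change -1.96 ± 0.63, adjusted p = 0.0141). Since 3 of its treated arrays lay under 5, the level was at least 3.04-fold lower, computed with values raised to the floor of 5.

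Lamb2, a laminin beta chain, went from 5.58, 6.78, 4.27 and 5.61 to 3.89, 4.78, 3.62 and 3.65 (-1.58 ± 0.63, adjusted p = 0.0519). It passed at 10 µM (adjusted p = 0.0418) and at 1 µM with a rat block (adjusted p = 6.04e-06). Lama3 and Lamb3, chains of the epithelial laminin at hemidesmosomes, did not pass. The log2 change was 0.01 for Lama3 (adjusted p = 0.983). Lamb3 was 8.52, 8.64, 7.02 and 8.19 at 0 µM and 9.13, 8.81, 7.93 and 8.63 at 1 µM, higher in 4 of 4 rats with overlapping groups (0.53 ± 0.57, adjusted p = 0.55; 0.00847 with the rat as a block). Lamb1 (-0.30) and Lamc3 (0.27) did not pass, and Lamc3 passed with the block (adjusted p = 0.037).

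Among 12 collagens 4 fell and none rose, beside 15.5% and 11.3% of all genes. The basement membrane chain Col4a5 went from 10.15, 10.80, 9.40 and 9.46 to 9.0, 9.41, 8.38 and 8.25, with differences of -1.39 to -1.03 within a rat although the groups overlapped (2.29-fold lower, adjusted p = 0.026). Col4a1 fell by 1.24 ± 0.42 on the log2 scale (6.72, 7.53, 5.89 and 6.39 against 5.44, 5.75, 4.54 and 5.83, adjusted p = 0.0211). Its second probe set gave -0.71 (adjusted p = 0.141). Col18a1, the precursor of endostatin, had close replicates, 9.74, 9.59, 9.59 and 9.74 against 9.18, 9.25, 8.87 and 8.76 (1.57-fold lower, adjusted p = 8.56e-08), and both of its probe sets fell.

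The fibrillar chain Col1a2 lay near the floor, 5.19, 5.37, 5.49 and 5.21 against 4.68, 4.85, 4.46 and 4.27 (adjusted p = 0.000335 as measured). With values under 5 set to 5 it was at least 1.24-fold lower, and this fall did not pass (-0.31, limma adjusted p = 0.123). Col3a1, another fibrillar chain, was higher in 4 of 4 rats but did not pass: 6.92, 5.45, 6.09 and 6.53 against 7.68, 5.83, 6.54 and 6.80 (0.46 ± 0.47, adjusted p = 0.516). Col12a1 (-1.45 ± 0.77, adjusted p = 0.166) differed by -3.43 in one rat and by -0.38 in another, and passed with a rat block (adjusted p = 0.00328). The other collagens (Col4a2, Col5a1, Col5a2, Col5a3, Col6a1 and Col11a1), with log2 changes of -0.40 to 0.25, did not pass.

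Col4a1 and Col4a2 encode chains of the same collagen IV molecule and start from a shared stretch of DNA in opposite directions. Col4a2 was 5.07, 5.70, 4.56 and 5.21 at 0 µM and 4.92, 4.68, 4.49 and 4.87 at 1 µM (-0.40 ± 0.28, adjusted p = 0.316). The 76 bases between their annotated starts lie at chr16:84885521-84885596 of the rat build GRCr8 (RefSeq) and are shown on the plus strand because both genes are read from them. Capitals mark CCGCCC, the reverse complement of the GC box GGGCGG that Sp1 factors bind.
between Col4a2 and Col4a1: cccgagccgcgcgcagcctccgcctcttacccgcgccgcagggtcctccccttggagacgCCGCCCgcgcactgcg

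Of 5 integrin beta entries, Itgb1, Itgb4 and Itgb3bp fell and none rose, beside 15.5% and 11.3% of all genes. Itgb1, the beta chain shared by most integrins that bind matrix, went from 10.99, 11.29, 10.84 and 11.23 to 10.56, 10.80, 10.56 and 10.79, a small fall without overlap (1.33-fold lower, adjusted p = 0.000483) that its second probe set also gave (-0.44). Itgb4, which pairs with Itga6 into a laminin receptor, went from 5.85, 6.15, 5.18 and 5.55 to 4.84, 5.00, 4.74 and 4.31 (adjusted p = 0.0272 as measured). With values raised to the floor Itgb4 was at least 1.6-fold lower, and this fall did not pass (-0.68, limma adjusted p = 0.119). Its partner Itga6 did not pass (-0.18, adjusted p = 0.725). Itgb3bp fell by 0.73. The log2 changes of Itgb5 (-0.21) and Itgb1bp1 (-0.29) did not pass, and Itgb1bp1 passed with a rat block (adjusted p = 0.00973).

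Itga7, a laminin-binding chain best known from muscle, was the only alpha chain to pass at 1 µM and 72 h, and it rose. It was 5.32, 5.31, 5.66 and 5.62 at 0 µM and 6.6, 6.53, 6.40 and 6.92 at 1 µM, with no overlap (2.20-fold higher, log2 change 1.13 ± 0.24, adjusted p = 0.000179). The log2 changes of Itga1 (-0.32), Itga6 (-0.18) and Itga9 (-0.58) did not pass. With the rat as a block Itga1 and Itga9 passed (adjusted p = 0.0423 and 0.0251).

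Of 8 keratins 2 fell and 1 rose, beside 15.5% and 11.3% of all genes. These counts are too small to set the keratins apart from other genes. Krt8 and Krt18, the filament pair of hepatocytes, both fell. Krt8 went from 12.36, 12.70, 12.02 and 11.88 to 11.25, 11.79, 11.42 and 10.66 with no overlap (1.94-fold lower, log2 change -0.96 ± 0.24, adjusted p = 0.00135). Krt18 went from 12.40, 12.85, 12.27 and 12.05 to 11.73, 12.11, 12.02 and 11.24 with overlap (1.54-fold lower, adjusted p = 0.0255). Both were lower in each rat.

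Krt23, an acidic keratin, moved the other way, with the largest rise of the 69 genes at 1 µM and 72 h. It was 3.79, 3.73, 3.62 and 3.71 at 0 µM, under the floor in every rat, and 6.94, 6.85, 5.73 and 6.59 at 1 µM. That is at least 2.88-fold higher (log2 change as measured 2.82 ± 0.37, adjusted p = 3.55e-09). Over the 17 arrays at 0 µM it reached at most 4.65, so it passed the floor through treated arrays only. Its place among the 69 genes thus depended on its rise, and its p-values are not independent of that selection. Krt7 (-0.68, adjusted p = 0.65) and Krt19 (-1.04, adjusted p = 0.443), keratins of bile duct cells, did not pass, nor did Krt10, Krt17 and Krt25 (-0.27 to 0.06).

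The promoters of these 3 keratins are shown since a neighbouring pair fell together and Krt23 rose. Krt8 and Krt18 lie next to each other, with 25828 bases between their annotated starts. Each window holds the 250 bases before the annotated start (RefSeq, GRCr8), read in the direction of the gene, at chr7:135010340-135010589 (minus strand, Krt8), chr7:135035918-135036167 (plus strand, Krt18) and chr10:84946930-84947179 (minus strand, Krt23). Capitals mark GGGCGG, which is present once in Krt18 and on neither strand in the Krt8 and Krt23 windows.
Krt8: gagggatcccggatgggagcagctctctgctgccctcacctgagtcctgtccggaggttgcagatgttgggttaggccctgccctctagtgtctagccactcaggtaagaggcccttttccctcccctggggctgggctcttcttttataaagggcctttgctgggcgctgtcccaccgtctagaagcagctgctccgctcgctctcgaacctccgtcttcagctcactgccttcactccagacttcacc
Krt18: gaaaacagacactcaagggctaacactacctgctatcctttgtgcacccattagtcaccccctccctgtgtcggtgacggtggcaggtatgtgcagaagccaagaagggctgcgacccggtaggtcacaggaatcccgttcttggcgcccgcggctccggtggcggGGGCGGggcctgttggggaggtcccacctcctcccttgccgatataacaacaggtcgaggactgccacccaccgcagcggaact
Krt23: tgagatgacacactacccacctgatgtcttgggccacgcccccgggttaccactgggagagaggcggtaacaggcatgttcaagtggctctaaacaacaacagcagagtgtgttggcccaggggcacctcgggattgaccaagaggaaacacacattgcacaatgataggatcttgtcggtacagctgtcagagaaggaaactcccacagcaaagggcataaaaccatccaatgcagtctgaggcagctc

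All 4 tropomyosins were lower on average at 72 h, and 3 passed, where 15.5% of all genes fell. Tpm4, a tropomyosin of non-muscle actin filaments, went from 10.69, 11.47, 11.03 and 10.55 to 9.10, 9.87, 10.33 and 9.14 (2.51-fold lower, adjusted p = 0.00105). Tpm1 went from 10.56, 11.14, 10.24 and 10.21 to 9.24, 9.54, 9.78 and 9.08 (2.19-fold lower, adjusted p = 0.000395). Tpm3 was 1.67-fold lower (adjusted p = 0.00014). In these 3 genes no treated array reached the lowest untreated one. Tpm2 did not pass (-0.80 ± 0.51, adjusted p = 0.265; 0.0328 in the fit with a rat block), and its untreated values ranged from 3.92 to 6.52. The other probe sets of Tpm1 were uneven: one with a mean of 9.22 fell by 1.16 (adjusted p = 0.000251), and dimmer ones, with changes of -0.76 to -0.11, did not pass.

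Of 6 tubulins 4 fell at 72 h and none rose, beside 15.5% and 11.3% of all genes. Tubb5, a widely expressed beta tubulin, went from 10.07, 10.73, 9.83 and 9.58 to 7.96, 8.77, 8.99 and 7.62 (3.29-fold lower, log2 change -1.72 ± 0.35, adjusted p = 8.23e-05), with the smallest difference, -0.84, in Rs631. Tubb6 went from 9.70, 9.81, 9.44 and 9.32 to 8.32, 8.53, 8.73 and 7.93 (2.28-fold lower, adjusted p = 5.36e-07). The alpha tubulin Tuba4a was 1.94-fold lower (adjusted p = 8.86e-05). Tubb2a went from 11.45, 11.47, 11.51 and 11.28 to 10.36, 10.72, 10.86 and 10.67 (1.71-fold lower, adjusted p = 3.38e-10).

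None of these 4 overlapped between the groups. The log2 change was -0.49 for Tubb2b (adjusted p = 0.537) and 0.00 for Tubb4a (adjusted p = 0.992). Tubb2a and Tubb2b are close copies, as are the myosin light chains Myl12a and Myl12b, and a probe set for one can take up RNA of the other, so the values within each pair are uncertain. Probe sets shared by Tuba1a, Tuba1b and Tuba1c, by Tubb4a and Tubb4b and by Myl6 and Myl6b carry several symbols and were not used here.

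Of 5 myosin light chains 2 fell and none rose, beside 15.5% and 11.3% of all genes. Myl12b, a regulatory light chain of non-muscle myosin II, went from 10.18, 10.37, 9.81 and 10.19 to 9.43, 9.47, 8.85 and 9.36 (1.82-fold lower, adjusted p = 0.000201). Myl12a went from 12.22, 12.32, 12.08 and 12.12 to 11.81, 11.86, 11.87 and 11.71, a 1.3-fold lower level with close replicates (adjusted p = 3.22e-05). Neither overlapped. Myl9, the related smooth muscle chain (-0.50 ± 0.25, adjusted p = 0.127), and the heart chains Myl2 (0.08) and Myl4 (-0.30) did not pass.

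Of 9 claudin entries 3 fell and none rose, beside 15.5% and 11.3% of all genes. Cldn2, which forms a cation pore in tight junctions, went from 6.36, 6.42, 7.02 and 6.53 to 5.59, 4.44, 6.19 and 5.73 (log2 change -1.10 ± 0.30, adjusted p = 0.00317; at least 1.94-fold when values are raised to the floor). Cldn1, a sealing claudin of hepatocytes, went from 9.31, 9.12, 8.97 and 9.77 to 8.87, 8.74, 7.89 and 8.32 (1.79-fold lower, adjusted p = 0.00335), while its 2 other probe sets gave -0.38 and -0.32 and did not pass. Cldn3 went from 8.65, 8.88, 8.31 and 8.20 to 8.13, 7.10, 8.22 and 7.08 (adjusted p = 0.0388). It differed by -0.09 in Rs631 and by -1.78 in Rs628, and without Rs628 its change was -0.58 (adjusted p = 0.238). Cldn4, Cldn6, Cldn7, Cldn12 and Cldn15 (-0.64 to -0.02) and Cldnd1 (-0.31) did not pass, and Cldnd1 passed with a rat block (adjusted p = 0.000385).

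Of the 31 genes called at 72 h, 15 had further probe sets that passed the same floor, 29 in all. In 28 of these the change had the same sign and in 17 of those it passed. Calls of 18 of the 31 genes held under every setting in which the gene was tested (Krt23 and Itga7 were not tested with the filter at log2 7). Those lost under at least one setting were Anxa1, Anxa5, Anxa7, Cldn1, Cldn3, Col1a2, Col4a1, Col4a5, Itgb1, Itgb4, Krt18, Lama5 and Myl12a. Without Rs627, 24 genes passed, and without Rs632, 23. The share of all genes in those fits is not given here, so these counts do not tell these families from other genes.

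At 72 h more genes passed, and the median change was larger, at higher concentrations. At 0.001 µM no gene of the 69 passed and none had an unadjusted p under 0.05, where 0% of all genes passed. At 0.01 µM none passed (8 had an unadjusted p under 0.05) beside 0.418% of all genes. At 0.1 µM 10 passed (9 lower, 1 higher), beside 8.82% of all genes (4.82% lower, 4% higher). At 1 µM 31 passed, and at 10 µM 31 (29 lower, 2 higher), beside 28% (15.6% lower, 12.5% higher). The medians over the 69 genes were -0.09, -0.18, -0.45, -0.52 and -0.63 in that order, and over all genes -0.08, -0.14, -0.11, -0.06 and -0.04.

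**Figure D3:**
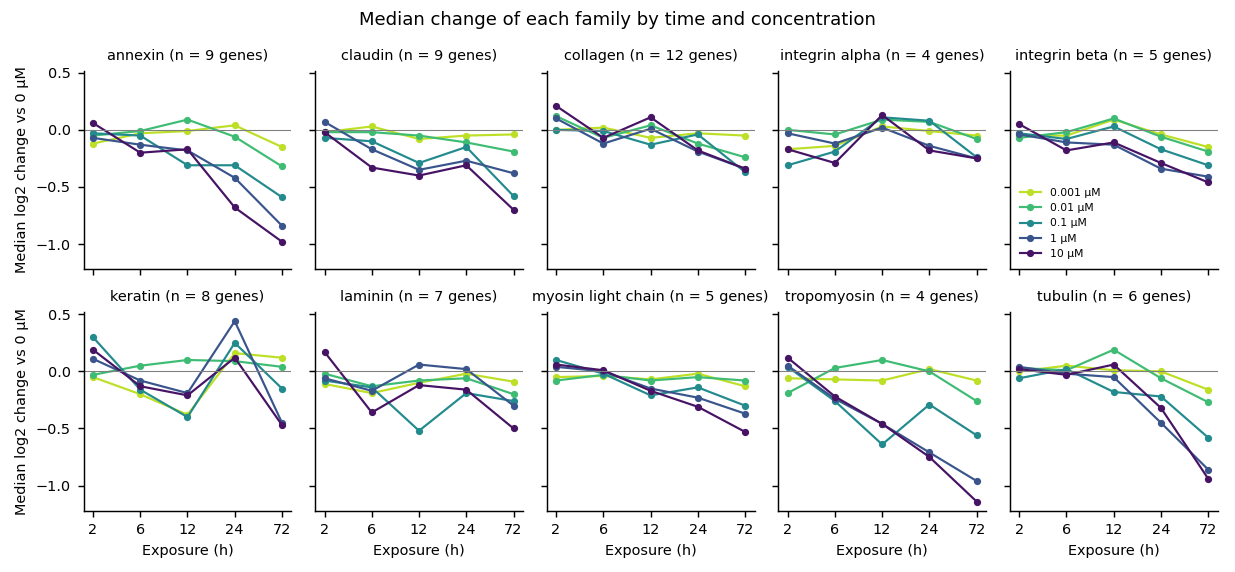
Median log2 change against 0 µM over the genes of each family (y axis) by exposure time (x axis, not to scale), with 1 line per concentration and the number of genes in each title. At 2 h the medians lie between -0.31 and 0.30. At 72 h the annexin, tropomyosin and tubulin medians at 1 µM are -0.84, -0.96 and -0.86, and the collagen median is -0.34.

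The 10 genes that passed at 0.1 µM were Anxa2, Anxa3, Anxa4, Anxa7, Cldn1, Lamc1, Myl12a, Myl12b and Tubb6, which were lower, and Krt23, which was higher. Tubb6 was lower by 0.87 and Lamc1 by 1.57 on the log2 scale. With the rat as a block 37 passed (53.6%), beside 25.3% of all genes, and 2 passed without Rs627 as well as without Rs632. For the fits with a rat left out the share of all genes is not given here. All comparisons at one time share the 0 µM arrays, so the concentrations are not independent of each other.

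Anxa3 stood at 9.40, 8.65 and 7.41 at 0.1 µM (Rs628, Rs631 and Rs632) and at 8.26, 7.01 and 5.98 at 10 µM, below its values at 1 µM in the same rats. Its log2 change was -1.92 at 0.1 µM, -2.59 at 1 µM and -3.33 at 10 µM. Lamc1 was 9.26, 8.18 and 7.77 at 0.1 µM and 8.23, 7.32 and 7.05 at 10 µM, with changes of -1.57, -2.15 and -2.45. Krt23 was 5.33, 4.49 and 4.91 at 0.1 µM and 7.37, 6.04 and 6.92 at 10 µM. With values raised to the floor it was at least 1.08-fold higher at 0.1 µM, where 2 of 3 arrays lay under 5, 2.88-fold at 1 µM and 3.43-fold at 10 µM. In Anxa3 and Lamc1 each of Rs628, Rs631 and Rs632 was lower at every step from 0 to 0.1, 1 and 10 µM.

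**Figure D4:**
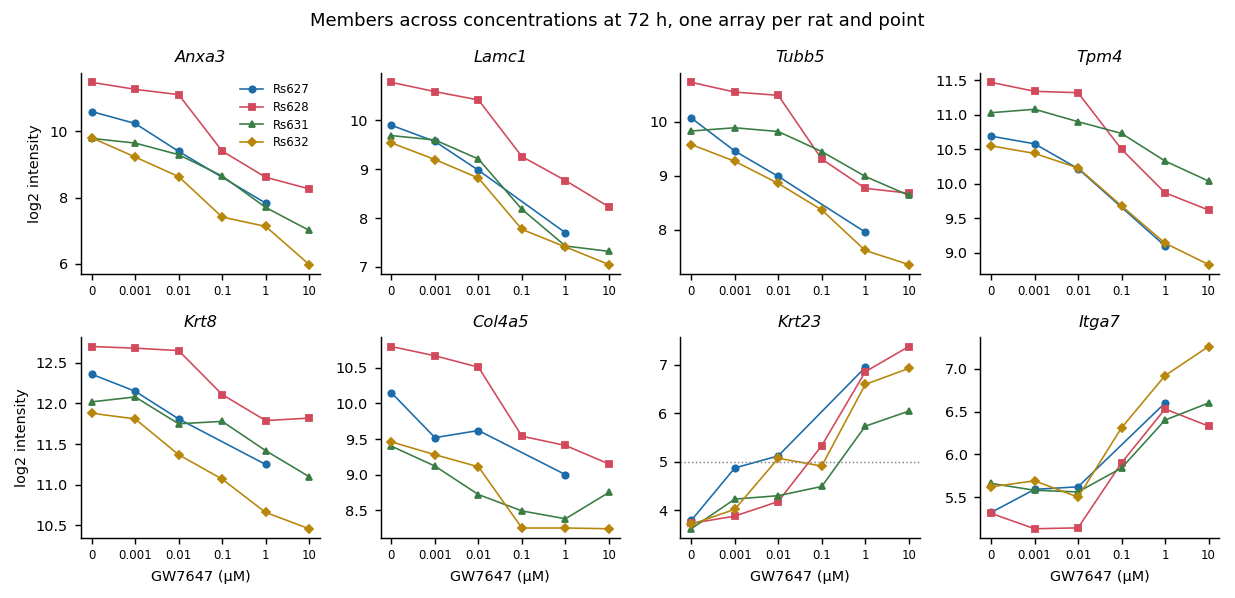
Log2 intensity after 72 h (y axis, own range per gene) against GW7647 concentration (x axis, steps of 10-fold after 0, not to scale) for 8 genes, 1 line per rat and 1 array per point. The 0.1 and 10 µM groups have no array of Rs627, whose line joins the points on either side, and the dotted line in the Krt23 panel marks the floor of 5. Anxa3, Lamc1, Tubb5, Tpm4, Krt8 and Col4a5 are lower at 1 and 10 µM than at 0 µM in every rat measured, and Krt23 and Itga7 are higher.

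At 10 µM and 72 h, the falls in log2 units were -2.18 for Anxa5, -1.64 for Anxa1, -0.98 for Anxa2, -0.95 for Anxa4 and -0.61 for Anxa7. Lama5 fell by 2.47 and Lamb2 by 1.76 as measured, with every array at 10 µM under the floor. The collagens Col4a1 (-1.3), Col4a5 (-1.24), Col18a1 (-0.82) and Col1a2 (-0.65 as measured, near the floor) fell too. Among cytoskeletal genes Tubb5 (-1.83), Tpm4 (-1.44), Tpm1 (-1.31), Tubb6 (-1.29), Krt8 (-1.11), Tubb2a (-0.94), Tuba4a (-0.93), Myl12b (-0.83), Krt18 (-0.76), Tpm3 (-0.71) and Myl12a (-0.41) fell. The claudins Cldn2 (-1.70), Cldn3 (-1.10) and Cldn1 (-0.91), and Itgb3bp (-0.63) and Itgb1 (-0.46), fell as well, and Itga7 rose by 1.25. Itgb4 (-0.91, adjusted p = 0.0543) did not pass, and passed with a rat block (adjusted p = 0.000224).

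Between 10 and 1 µM no gene of the 69 passed and none had an unadjusted p under 0.05, and 0% of all genes passed. Anxa3 differed by -0.74 (95% confidence interval -1.93 to 0.45) and Cldn2 by -0.60 (-1.24 to 0.04). Over the 31 genes called at 1 µM the intervals reached from -1.93 to 1.04, so these data do not show that both concentrations act alike. In 25 of the 31 the mean change was larger at 10 µM. The 10 µM group lacks Rs627.

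At 24 h and 1 µM 24.6% of the 69 genes fell, near the 22.6% of all genes. The 17 genes were 3 of 9 annexins, 2 of 9 claudins, 3 of 4 tropomyosins, 3 of 6 tubulins and 2 of 5 myosin light chains. They also held 2 of 5 integrin beta entries, 1 of 4 integrin alpha chains and 1 of 7 laminin chains. No family was tested against the share of all genes. Anxa3 was 10.23, 9.73 and 9.71 at 0 µM (Rs627, Rs631 and Rs632) and 8.76, 9.5, 8.26 and 6.54 at 1 µM (all 4 rats), a 3.09-fold lower level (adjusted p = 0.0327). Lamc1 was 9.70, 9.61 and 9.63 against 8.36, 9.30, 7.57 and 6.86 (3.09-fold lower, adjusted p = 0.00299). Krt23 was 4.65, 3.86 and 3.4 against 6.14, 6.70, 5.22 and 5.92, at least 1.99-fold higher (adjusted p = 6.65e-05). In all 3 genes the groups were apart. Within the treated group of Anxa3 and Lamc1, Rs632, one of the arrays of low signal, was lowest, and Rs628, which has no untreated partner here, was highest.

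Tubb5 (-1.15), Tpm4 (-1.02), Cldn3 (-1.07), Cldn2 (-0.95), Tpm1 (-0.91), Itgb3bp (-0.72), Myl12b (-0.65), Tubb6 (-0.63), Anxa7 (-0.54), Anxa2 (-0.52), Tpm3 (-0.51), Tubb2a (-0.49), Itgb1bp1 (-0.44) and Myl12a (-0.23) also fell at 24 h. Itga9 fell from 4.85, 4.23 and 5.34 to 4.19, 3.74, 3.98 and 3.79, at or near the floor. No collagen passed at 24 h in limma (0 had an unadjusted p under 0.05, and 3 passed with the rat as a block). Of the 18 genes called at 24 h, 16 were also called at 72 h, which is 16 of the 31 called there.

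The 24 h count rests on few arrays. It was 36 (52.2%) with the rat as a block, near the 49.8% of all genes called in that fit, and 5 without the arrays of low signal, where 14.6% of all genes passed. With a rat left out, when 9.8% to 38.1% of all genes passed, it was 11 without Rs627, 27 without Rs628, 8 without Rs631 and 4 without Rs632. With the rat as a block and the arrays of low signal left out together, a setting chosen after seeing the data, it was 30 (3 higher and 27 lower; 43.5%), beside 31% of all genes. At 10 µM and 24 h, 11 passed (1 higher, 10 lower) beside 17.1% of all genes (6.43% higher, 10.7% lower), 33 with the rat as a block (34.2% of all genes), 5 without Rs627, 23 without Rs628, 7 without Rs631 and 2 without Rs632. No share of all genes is set beside the counts at 10 µM with a rat left out. At 0.1 µM none passed beside 4.32% of all genes (6 had an unadjusted p under 0.05), and 17, all lower, with the block, beside 12.9% of all genes. At 0.001 and 0.01 µM none passed and 0 had an unadjusted p under 0.05, with 0% and 0.136% of all genes.

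Before 24 h, 1 gene passed at any concentration: Myl4 at 10 µM and 6 h, from 5.35, 4.73, 4.48 and 5.16 at 0 µM to 4.14, 3.88 and 4.66 (Rs627, Rs631 and Rs632; log2 change -0.70 ± 0.21, adjusted p = 0.042), where 4.3% of all genes passed. Every treated value lay under 5, and the 0 µM arrays are those in which Myl4 rose in untreated culture. The treated array of Rs627 had the lowest signal of the series (upper quartile 6.42). Among all genes, at 0.001, 0.01, 0.1 and 10 µM the share that passed was 0%, 0.0113%, 0.192% and 1.02% after 2 h. After 12 h it was 0%, 0.0339%, 1.55% and 7.95% in the same order, and after 6 h 0%, 0% and 0.916% for the first 3 of these concentrations. At most 10 of the 69 genes had an unadjusted p under 0.05 in any of these comparisons (10 µM, 12 h). At 1 µM the first genes to pass with the rat as a block were, at 6 h, Krt23 (1.2 as measured, adjusted p = 0.00271), Myl12b (-0.34, adjusted p = 0.00039), Itga9 and Myl4. At 12 h they were Krt23, Itga7, Cldnd1, Itga6, Lamc1 and Myl12b. In that fit 4.7% of all genes passed at 6 h and 11.3% at 12 h, so the 4 and 6 members are near or below the background. Krt23 at 6 h was 3.64, 4.24, 3.38 and 3.47 at 0 µM and 5.43, 5.84, 3.78 and 4.46 at 1 µM, higher in each rat but under 5 in 2 of them.

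The change at 1 µM differed between 72 and 2 h for 14 genes in a test of that difference (2 higher, 12 lower), where 8.66% of all genes passed (4.4% higher, 4.26% lower). Lamc1 fell by 2.32 ± 0.61 more at 72 h (adjusted p = 0.00718), Tubb2a by 0.64 ± 0.14 more (adjusted p = 0.00148), and Krt23 rose by 2.89 ± 0.56 more as measured (adjusted p = 0.000164). The count was 33 with the rat as a block (17.9% of all genes), 4 without Rs627, 7 without Rs631 and 7 without Rs632. Beside the counts with a rat left out no share of all genes is given here. The 2 h groups at 0 and 1 µM hold 3 arrays each and share 2 rats.

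RefSeq promoters (GRCr8, 250 bases before the start) were found for 55 of the 69 genes, among them 27 of the 29 that fell at 1 µM and 72 h. Both strands were searched for 4 motifs. The direct repeat bound by PPARα with its partner RXR was searched as AGGTCA, any 1 base, then AGGTCA. It was in 0 of the 55, beside 0.0134% of the promoters of tested genes and 0.0583% of all promoters in the table. The CArG box bound by SRF was in 0 of 55, beside 1.35% of tested genes and 1.62% of all. GGGCGG was in 33 of the 55 and in 21 of the 27 that fell, beside 61.0% of the promoters of tested genes. GGAATG, the core of the site bound by TEAD factors, was in 9 of the 55 and in 5 of the 27 (Anxa1, Anxa2, Itgb1, Lamc1 and Tpm1), beside 10.4% of tested genes. It was also in Anxa8, Cldn15, Cldnd1 and Itgb1bp1, which were not called lower. GGAATG and GGGCGG were chosen with earlier results in view, a match is a description of the letters, and the absence of a match says nothing about the factor.

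The windows of Lamc1 (chr13:68051987-68052236, minus strand) and Anxa2 (chr8:78986002-78986251, plus strand) are shown as examples of genes that fell and hold GGAATG and GGGCGG. Itgb1 and Tpm1 fell and hold both motifs too, and Cldn15 holds both and did not pass. Capitals mark GGAATG and GGGCGG or their reverse complements CATTCC and CCGCCC. In Lamc1 one CATTCC overlaps a CCGCCC.
Lamc1: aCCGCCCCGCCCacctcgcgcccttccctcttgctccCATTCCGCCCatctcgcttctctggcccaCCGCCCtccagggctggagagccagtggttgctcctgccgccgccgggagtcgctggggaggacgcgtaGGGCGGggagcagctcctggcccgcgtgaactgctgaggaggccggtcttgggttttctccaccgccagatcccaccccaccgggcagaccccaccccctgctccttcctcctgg
Anxa2: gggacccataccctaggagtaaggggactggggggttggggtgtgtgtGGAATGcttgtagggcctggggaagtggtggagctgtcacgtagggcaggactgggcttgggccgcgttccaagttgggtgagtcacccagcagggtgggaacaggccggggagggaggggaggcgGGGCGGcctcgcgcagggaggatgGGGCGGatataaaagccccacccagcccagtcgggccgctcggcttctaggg

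Some genes differed widely between rats. Over all arrays, the medians of the 4 rats lay more than 1 apart in 17 of the 69 genes, with the highest median in Rs628 for 13 of them and in Rs627 for 4. The bile duct keratin Krt7 had medians of 4.47, 6.57, 3.64 and 3.66 (Rs627, Rs628, Rs631, Rs632) and Krt19 of 5.18, 6.40, 3.99 and 3.92. At 72 h and 0 µM Krt19 was 5.24, 7.68, 3.64 and 3.88, and at 1 µM 3.64, 5.10, 4.10 and 3.43. Col12a1, Lamb2, Cldn4, Tpm2 and Tubb2b were also highest in Rs628. Anxa8 had medians of 9.86, 9.74, 7.27 and 9.51, low in Rs631.

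**Figure D5:**
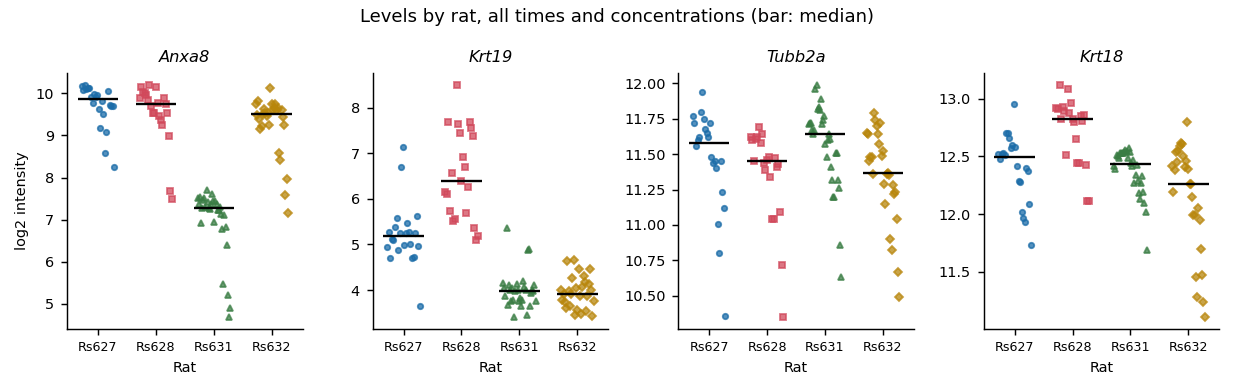
Log2 intensity of 4 genes (y axis, own range per gene) in every array by rat (x axis), with all times and concentrations together. The bar is the median of a rat. Anxa8 lies lowest in Rs631 (median 7.27) and Krt19 highest in Rs628 (median 6.40), whereas the rat medians span 0.27 for Tubb2a and 0.56 for Krt18.

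Other measures moved beside these genes at 72 h. The actin control probes for the 3′ end exceeded those for the 5′ end, a measure of RNA quality, by 1.66 ± 0.18 (SD, n = 4) at 0 µM and 1.97 ± 0.15 (SD, n = 4) at 1 µM, higher at 1 µM in each rat by 0.14 to 0.58, and the GAPDH controls by 0.35 ± 0.06 and 0.34 ± 0.09. The actin probes read a gene that itself fell (Actb, -0.50 ± 0.09). Whether RNA quality had a part in the changes was not tested.

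Markers of other cell types were low as a whole, but not each of them. Over all arrays Vim (mean 10.73), Epcam (10.35), Cd14 (9.3), Lyz2 (8.81) and Onecut1 (8.7) were above 5 in 100 of 100 arrays, Col3a1 in 99, Acta2 in 97, Col1a2 in 83 and the mesothelial marker Gpm6a in 70. The ranges that follow are over the arrays at 72 h alone. The mean log2 level over the 9 bile duct markers ranged from 4.68 to 6.19 at 0 µM and from 4.58 to 5.24 at 1 µM, with Sox9, Cftr and Muc1 never above 5. That of the 14 stellate cell and fibroblast markers ranged from 4.38 to 4.63 and from 4.38 to 4.59, with Des, Lrat, Lum, Col1a1, Thy1 and Gfap never above 5. The 8 endothelial markers ranged from 2.93 to 3.06 and from 3.08 to 3.16, and the 11 macrophage and leukocyte markers from 4.37 to 4.65 and from 4.23 to 4.63, with 8 never above 5. The 5 mesothelial markers ranged from 3.54 to 4.25 and from 3.4 to 4.36, with 4 never above 5, and the 14 hepatocyte markers from 10.65 to 10.90 and from 10.82 to 11.17. Col1a2, Acta2 and Vim of the stellate list fell, and the part of other cells in the result was not tested.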

How the data were processed

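Total RNA of 100 cultures was measured on Affymetrix rat PM arrays of 31139 probe sets. The deposited values are log2 intensities made by the authors. The submitters' processing notes name GCRMA and Partek, and their versions, roles and settings are not given in the sources used here. Gene symbols came from the platform annotation, in which 19069 probe sets have 1 symbol, 572 several and 11498 none. Groups came from the sample titles.

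The 8843 genes above log2 5 in at least 3 arrays were fitted with limma 3.58.1 in R 4.3.3 as 30 group means (lmFit and eBayes, 70 residual degrees of freedom, two-sided, without the rat). P-values were adjusted by Benjamini-Hochberg over all 8843 genes per comparison, and a gene passed at an adjusted p under 0.05. Errors of changes are standard errors of that fit. Array values carry no read depth, and the number of arrays limits the precision. The families, gene lists and motifs were chosen with earlier results of these data known. All 69 genes are accounted for by family, with values for the largest changes that passed and for genes that did not. Where a group lies at or under log2 5, a fold is a lower bound with values under 5 set to 5.

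Arrays of one rat come from the same animal. Their deviations from group means correlated at a median of 0.62 (lowest rat 0.52) against -0.22 between rats, and 95 of 100 arrays had their highest correlation with an array of their own rat, so a fit with the rat as a block was an alternative. Other alternatives changed the filter, the scaling, the probe sets and the arrays used. One, the rat block without the arrays of low signal, was chosen after seeing the data. In data simulated for 1 µM against 0 µM at 72 h with 8843 genes, 83.5% of 200 genes changed by a log2 of 1 were recovered, and 10 unchanged genes were called. The simulated noise was independent between arrays, without the likeness within a rat. Fewer genes were changed than the 2373 called in the data, so the share need not hold for them.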

Additional observations from a re-analysis of the deposited data

Results flagged for a closer look

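The change at 1 µM GW7647 against 0 µM was larger, or of the other sign, at 72 h than at 2 h for 14 of the 69 genes, by limma's test of the difference between the changes (adjusted p over all genes tested). The 2 h groups hold 3 arrays each. Among structural genes of microtubules, the difference was -1.72 for Tubb5, -1.29 for Tubb6, -0.98 for Tuba4a and -0.64 for Tubb2a. For the actin and myosin system it was -0.80 for Tpm3, -0.90 for Myl12b and -0.47 for Myl12a. For matrix genes it was -2.32 for Lamc1, -0.64 for Col18a1 and -0.85 as measured for Col1a2, which lay near the floor. It was -0.92 for Anxa2 and -1.07 for Itgb3bp. Krt23 (2.89 as measured, with untreated values under 5, and past the floor through treated arrays only) and Itga7 (1.15) rose more at 72 h. No array stood apart by Dixon's gap ratio in the 62 sets of 4 values that were examined. These were 31 genes in each of the 0 and 1 µM groups at 72 h. With 4 values from different rats this ratio finds only an extreme array, so it does not show that no call rests on 1 array.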

How the results depend on the processing

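Direction held in nearly all settings. Over 121 results for single genes and 20 settings, 2115 of 2393 values kept their direction and their side of the threshold, 277 no longer passed, and 1 reversed: Lamc3 at 12 h against 2 h, whose change was 0 with values under 5 set to 5. The counts at 1 µM and 72 h stayed within 1.5 times of 31 in every setting (23 to 46; 23 to 33 with a rat left out).

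The rat as a replicate block raised most counts, and the cause was not tested. Calls among all 8843 genes rose in that fit as well. At 24 h they were 4405 (1 µM), 3021 (10 µM) and 1143 (0.1 µM), in place of 2619, 1511 and 382. At 72 h they were 2241 (0.1 µM), 200 (0.01 µM) and 3632 (10 µM), in place of 780, 37 and 2477. For the difference between 72 and 2 h they were 1584 in place of 766. At 1 µM they were 416 at 6 h and 998 at 12 h, in place of 180 and 478. With the replicate block, with it after exchanging the labels Rs627 and Rs628 in the untreated 12 h arrays, and with it without the arrays of low signal, the counts were 36, 38 and 30 in place of 18 at 1 µM and 24 h; 33, 36 and 31 in place of 11 at 10 µM and 24 h; 17, 19 and 19 in place of 0 at 0.1 µM and 24 h; 37, 37 and 41 in place of 10 at 0.1 µM and 72 h; 3, 10 and 16 in place of 0 at 0.01 µM and 72 h; 42, 47 and 47 in place of 31 at 10 µM and 72 h; 33, 36 and 35 in place of 14 for the difference between 72 and 2 h; 4, 4 and 4 in place of 0 at 1 µM and 6 h; and 6, 7 and 8 in place of 0 at 1 µM and 12 h. In untreated culture against 2 h they were 8, 9 and 11 in place of 1 at 72 h, 2, 5 and 6 in place of 1 at 24 h, and 4 without the arrays of low signal in place of 2 at 6 h. There the replicate block called 1147 of all 8843 genes at 72 h and 475 at 24 h, in place of 301 and 125.

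With a rat left out the count was 4 to 27 at 1 µM and 24 h, 2 to 23 at 10 µM and 24 h, 0 to 2 at 0.1 µM and 24 h, 2 to 10 at 0.1 µM and 72 h, 22 to 32 at 10 µM and 72 h, 4 to 11 for the difference between times, 0 to 2 at 1 µM and 6 h and 0 to 8 at 1 µM and 12 h. In untreated culture it was 0 to 2 at 6 h, 1 to 4 at 12 h, 1 at 24 h and 0 to 1 at 72 h. Only for 1 µM and 24 h is the share of all genes in these fits given above. The other counts thus do not tell these families from other genes.

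Among the other settings, the 24 h counts were 11 (1 µM) and 7 (10 µM) from arrays of the compared times alone. There 1921 and 1107 of all 8843 genes passed. At 1 µM and 24 h the count was 5 without the arrays of low signal and 6 without those at repeated plate positions, and at 10 µM it was 7 with a 1.5-fold minimum. Among all genes at 1 µM, 1292 passed without the arrays of low signal and 1413 without repeated positions. At 0.1 µM and 72 h it was 6 from arrays of that time alone, 16 without the arrays of low signal and 6 with the fold minimum. Of all genes 633 passed from arrays of that time alone and 1224 without those of low signal. At 0.01 µM and 72 h it was 6 without repeated positions, where 1001 of all 8843 genes passed. At 1 µM and 6 h it was 1 without the arrays of low signal, without repeated positions, and with values under 5 set to 5. At 12 h it was 1 under those settings and with the mean of all probe sets. Of all 8843 genes at 1 µM, 222 passed at 6 h and 670 at 12 h without the arrays of low signal. Without repeated positions 192 and 551 passed.

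In untreated culture, the count at 6 h was 4 without repeated positions, 0 with a filter at log2 7, and 1 with quantile normalization, the mean of probe sets, values under 5 set to 5 or the fold minimum. At 12 h it was 5 with arrays centred on the median, 0 with the filter at 7, and 1 with quantile normalization, the mean of probe sets or values under 5 set to 5. At 24 h it was 0 with quantile normalization, the filter at 7 or the mean of probe sets. At 72 h it was 3 without the arrays of low signal, without repeated positions or with every probe set as its own feature. It was 2 there with no filter or the mean of probe sets, and 0 with quantile normalization, median centring, the filter at 7 or the fold minimum. Of all 8843 genes, 626 passed at 72 h without the arrays of low signal and 750 without repeated positions. At 6 h 381 passed without repeated positions. For the other settings no share of all genes is given here. The counts in untreated culture thus do not tell these families from other genes.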

Other observations

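In lists of genes that work beside these families, more genes fell than rose at 1 µM and 72 h. Of 31 tested genes for actins, actin binding and focal adhesions, 23 fell and 1 rose (median -0.84), beside 15.5% and 11.3% of all genes. Flna, which crosslinks actin filaments, went from 8.96, 9.82, 8.22 and 8.72 (Rs627, Rs628, Rs631, Rs632) to 6.58, 7.46, 6.40 and 6.40 (log2 change -2.22 ± 0.40, adjusted p = 8.13e-06). Cnn3 (-0.96), Tmsb4x (-1.70), Ilk (-0.64), Lasp1 (-1.19) and Actb (-0.50) fell too, whereas Parvb, a protein of focal adhesions, rose (0.62 ± 0.16, adjusted p = 0.0024). Of 19 microtubule-associated genes 9 fell and none rose (median -0.28), among them the tubulin cofactors Tbcb (-0.64), Tbcd (-0.59) and Tbce (-0.44), and Map4 (-0.44).

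Of 20 junction genes outside the claudins 9 fell and 1 rose (median -0.40), beside 15.5% and 11.3% of all genes. F11r, a junction adhesion molecule, went from 11.40, 11.33, 11.46 and 11.31 to 10.31, 10.43, 10.48 and 10.09, with close replicates (-1.05 ± 0.08, adjusted p = 1.53e-17). The cadherins Cdh2 (-1.10) and Cdh1 (-1.37), Dsp (-0.93) and Tjp1 (-0.82) fell, and Tjp3 rose (0.81). Of 30 matrix and remodelling genes 11 fell and 1, Plod1 (0.49), rose (median -0.53). Ccn2, a matricellular protein, went from 12.27, 12.84, 12.41 and 12.48 to 8.95, 10.92, 7.53 and 8.01 (-3.64 ± 0.57, adjusted p = 4.31e-07), and Fn1, fibronectin, from 12.74, 13.05, 12.78 and 12.86 to 11.85, 12.39, 12.03 and 12.23 (-0.73 ± 0.09).

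The hepatocyte markers did not move one way: of 14, 4 rose (Cyp2e1 by 2.94, Asgr1 by 0.81, F2 by 0.59 and Apob by 0.48) and 3 fell (Ass1 by 1.66, Serpina1 by 0.88 and Ttr by 0.28), with a median of 0.13. Of 6 bile duct markers tested Onecut1 fell (-1.68), of 8 stellate and fibroblast markers Col1a2, Acta2 (-0.55) and Vim (-1.71) fell, and of 3 macrophage markers Lyz2 fell (-2.13) and Cd14 rose (0.83). The mesothelial list had 1 tested gene, which did not pass, and the endothelial list had 0. Krt7, Krt19, Cldn4, Col1a2 and Col3a1 are in these marker lists as well as among the 69 genes.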
